A study of Mus musculus with 18 samples.

Results

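All 9 dko arrays were set against all 9 mdx arrays, 18 of the 18 arrays in the series, to describe the genotype difference that extraocular muscle, leg muscle and heart had in common. Arrays were grouped by genotype alone, and the comparison was chosen with earlier results of these data known. The dko minus mdx difference was taken within each tissue, and the 3 tissue differences were averaged with equal weight. Dko extraocular muscle, dko leg muscle and dko heart had 3 arrays each, as had mdx extraocular muscle, mdx leg muscle and mdx heart. All tissue was taken at 8 weeks of age. Mdx mice carry a mutation of the dystrophin gene and served as the controls by the labels. By usual usage dko names mice that lack both dystrophin and utrophin, which the labels do not spell out, so both genotypes share the loss of dystrophin and no dystrophin-sufficient group was measured. Arrays were numbered 1 to 3 within each group, and a dko and an mdx array of the same tissue and number formed 1 of 9 pairs. Nothing in the labels ties a number to an animal or says that the 3 tissues came from the same mice, so the tests weigh differences against the variation among these arrays, some of which may be technical.

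Dystrophin links the actin cytoskeleton of a muscle fibre, through a complex of membrane glycoproteins, to the surrounding matrix, and utrophin is a close relative that binds the same complex. Fibres without this link tear during contraction, die and are replaced from satellite cells, and macrophages clear the debris while fibroblasts lay down matrix. Regenerating fibres pass through a stage at which they use embryonic and perinatal isoforms of the contractile proteins. Whole tissue was measured, so more or fewer cells of a type and more or less RNA per cell cannot be told apart.

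Intensities had been scaled to a common mean before deposit. Number 3 was apart in each of the 6 groups: its array medians were 526.2 to 573.95 intensity units, where numbers 1 and 2 had 614.95 to 672.05, and its maxima were 47024 to 74434, where the others had 33355 to 47589. Summed over 14 heart genes, the signal was 205121 to 397527 in dko heart and 185361 to 451696 in mdx heart, and at most 49606 in any array of the other tissues. Summed over 12 limb and trunk muscle genes it was 2226 to 3615 in dko heart and 2505 to 3988 in mdx heart, and at least 32658 elsewhere. The 7 tested genes of head and extraocular muscle summed to 67503 to 103511 in dko extraocular muscle and 67439 to 91068 in mdx extraocular muscle, and to 53460 to 62617 in dko leg muscle and 29695 to 82158 in mdx leg muscle, so these genes did not separate every extraocular array from every leg array.

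On the average of the 3 tissues, the macrophage genes Ctss (2.16-fold) and Lgals3 (2.17-fold), the collagen cross-linking enzyme Lox (2.09-fold) and the embryonic and atrial myosin light chain Myl4 (2.11-fold) rose in dko. Utrophin (Utrn, 1.77-fold) and the fat cell genes Ucp1 (1.99-fold) and Thrsp (1.6-fold) fell. In heart alone Ctss was 1.19-fold and Lgals3 1.6-fold higher in dko, and the arrays of the genotypes overlapped for both. The slow myosin gene Myh7 had the largest average of the genes that rose, 3.15-fold, but leg muscle carried it at 21.1-fold, against 1.17-fold in extraocular muscle and 1.27-fold in heart, and without leg muscle its average log2 difference was 0.29. Folds and differences are on the scale of log2(intensity + 166.7), where the offset steadies dim values. Of 8888 probe sets tested, 70 passed an adjusted p of 0.05 (0.788%), 49 higher in dko (0.551%) and 21 lower (0.236%), by limma with the 9 pairs as blocks and Benjamini-Hochberg adjustment over all 8888. A difference of the same sign in all 3 tissues was found for 61 of the 70 (0.686% of those tested), 40 higher (0.45%) and 21 lower (0.236%). All 9 pairs moved the same way for 39 of the 70, 22 higher and 17 lower. Without regard to any test, 2865 probe sets (32.2%) had the same sign in the 3 tissues and 210 (2.36%) the same sign in the 9 pairs, 98 higher (1.1%) and 112 lower (1.26%). Of the 61 common probe sets, 50 were annotated with 1 gene, for 49 genes in all, and 11 had no single gene symbol.

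These calls rested on the pairing and on most of the arrays. Without the pairs as blocks, 8 probe sets passed (0.09%), 7 higher (0.0788%) and 1 lower (0.0113%), all of them among the 70: Utrn, Ctss, S100a4, Postn, Myh7, Bach1, 97519_at, for which no gene was listed, and 160469_at, which carried several gene symbols. Leaving out 1 pair at a time left 3 to 41 calls, fewest without extraocular pair 1 and most without leg pair 1. Leaving out every array numbered 1, 2 or 3 left 0, 3 and 0. Without extraocular muscle 0 remained and without leg muscle 0, while 48 passed without heart. At an unadjusted p under 0.05, 1330 probe sets differed with the blocks and 440 without them. The plot of calls by setting shows how widely the number moved.

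**Figure D1:**
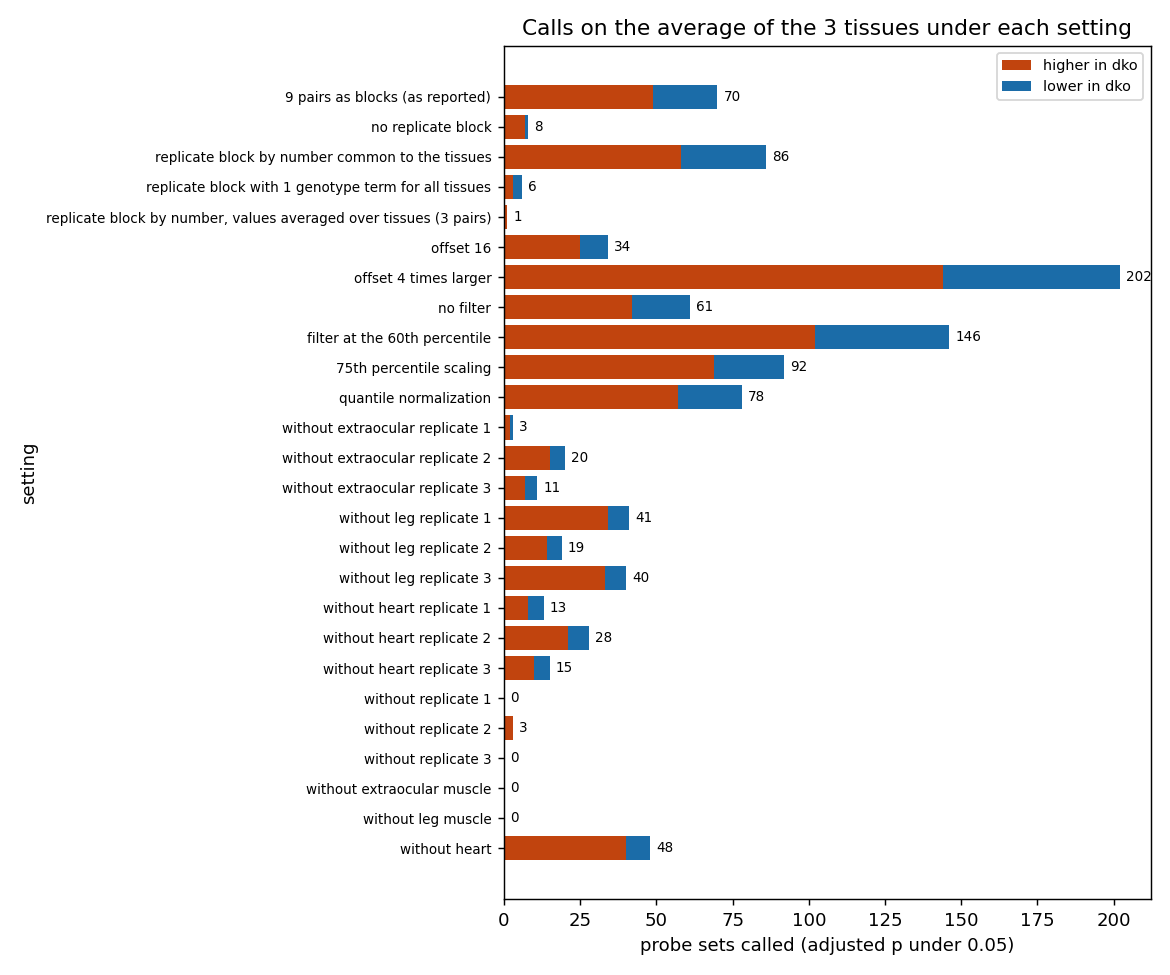
Number of probe sets called (x axis, adjusted p under 0.05) on the average of the 3 tissues under each setting (y axis), split into higher in dko and lower in dko. The count was 70 with the 9 pairs as blocks, 8 without blocks, 202 with an offset 4 times larger and 0 without extraocular or without leg muscle.

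Utrophin, the gene by which the 2 genotypes are told apart, was read by probe set 92507_at and was lower in dko in every pair. In extraocular muscle its intensity was 279.8, 220.2 and 414 on the dko arrays and 553, 605 and 1086 on the mdx arrays. Leg muscle gave 239.6, 259.8 and 298 on the dko arrays and 438, 492 and 551 on the mdx arrays, and heart gave 219.9, 292 and 262 on the dko arrays and 671, 588 and 672 on the mdx arrays. All 3 dko arrays lay below all 3 mdx arrays in each tissue. The average log2 difference was -0.82 (SE 0.0767, adjusted p = 0.00759), 1.77-fold lower, with -0.93 in extraocular muscle, -0.61 in leg muscle and -0.93 in heart. An exact two-sided sign-flip permutation over the 9 pairs gave p = 0.00391, the smallest that the sign assignments of 9 pairs allow. That test takes the 9 pairs as independent, which was not checked. Single arrays that shared a number deviated together between tissues (correlations of 0.327 to 0.74 across probe sets). What the dko and mdx arrays of a pair share cancels in their difference, and correlations of the pair differences were not computed. With the 3 numbers as units, no p under 0.25 could be reached.

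The other utrophin probe set, 92508_s_at, averaged -0.70 (SE 0.17, limma adjusted p = 0.0919; lower in 8 of 9 pairs; exact permutation p = 0.0156). Its leg arrays read 646, 431 and 233 on the dko arrays and 438, 624 and 738 on the mdx arrays and overlapped, whereas the dko arrays lay below the mdx arrays in extraocular muscle and in heart. On the dko arrays 92507_at read 219.9 to 414 units, under the median of every array, and without detection calls this cannot be told from background. Where the probes lie relative to the disrupted part of the gene was not given. Dystrophin (Dmd, 93623_at), mutant in both genotypes, averaged -0.23 (SE 0.107, limma adjusted p = 0.35; exact permutation p = 0.0938), lower in 6 of 9 pairs. Among 23 tested genes of the dystrophin-associated complex and costamere, 0 passed (4 at an unadjusted p under 0.05) when each gene was read by its brightest probe set, which for Utrn is 92508_s_at. Their median average difference was -0.00, beside -0.02 for all 6551 genes. Neuronal nitric oxide synthase (Nos1), which the complex holds at the membrane, averaged -0.53 (limma adjusted p = 0.174), and caveolin 3 (Cav3) averaged 0.27 (adjusted p = 0.182).

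In 12 probe sets no dko array overlapped an mdx array in any of the 3 tissues, 5 with dko above (0.0563%) and 7 with dko below (0.0788%). This class was set up after the data were seen. Within single tissues, the 3 dko arrays lay above the 3 mdx arrays in 2.99% of probe sets in extraocular muscle, 5.02% in leg muscle and 1.76% in heart, and below them in 2.66%, 4.93% and 2.16%. The 5 above were Peg3, Bach1, Lox, Capn6 and 160469_at, and all 5 passed on the average. Of the 7 below, Utrn, Thrsp and Fam220a passed, and AW112010, Cldn5, Pstk and Mrpl43 did not (limma adjusted p = 0.0501, 0.0515, 0.116 and 0.127). Cldn5, the tight junction protein of endothelium, averaged -0.85.

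Peg3, an imprinted zinc finger gene active in muscle progenitors, was bright in the skeletal muscles and dim in heart. Extraocular muscle gave 11114, 11898 and 16653 on the dko arrays and 7635, 8507 and 10591 on the mdx arrays. Leg muscle gave 11696, 14538 and 16610.4 on the dko arrays and 5088, 8832 and 10074 on the mdx arrays, and heart gave 1644, 1685 and 1647 on the dko arrays and 1088, 1204 and 1129 on the mdx arrays. The 3 dko hearts lay above every mdx heart. The average difference was 0.63 (SE 0.0757, adjusted p = 0.0112), 1.55-fold higher, with 0.55 in extraocular muscle, 0.87 in leg muscle and 0.48 in heart. A second probe set of the gene, 101451_at, averaged 0.59, and 161316_f_at averaged 0.11. Neither passed.

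Bach1 encodes a repressor of haem oxygenase and of other genes of the oxidative stress response. It read 2122, 1658 and 1753 on the dko arrays and 866, 1126 and 1050.1 on the mdx arrays in extraocular muscle. In leg muscle it read 2474, 1859.8 and 2430.1 on the dko arrays and 1327, 1494 and 1738 on the mdx arrays, and in heart 1682, 1399.8 and 2134 on the dko arrays and 889.7, 1178 and 958 on the mdx arrays. The 2 genotypes did not overlap within any tissue. The tissue differences were 0.77 in extraocular muscle, 0.52 in leg muscle and 0.69 in heart, and the average was 0.66 (SE 0.11, adjusted p = 0.0338). It also passed without the pairs as blocks (adjusted p = 0.0358). A second probe set, 93142_at, averaged 0.15 and did not pass. Haem oxygenase 1 (Hmox1) was also higher in all 9 pairs, by 0.30 on average, and did not pass (adjusted p = 0.101).

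Lox makes lysyl oxidase, which cross-links collagen and elastin. Its signal in extraocular muscle was 1347, 1357 and 1126 on the dko arrays and 273, 830.4 and 531 on the mdx arrays. It was 1828, 2982 and 2208 on the dko arrays and 612, 693 and 1142 on the mdx arrays in leg muscle and 516, 297 and 354 on the dko arrays and 32.5, 223 and 296 on the mdx arrays in heart, where the lowest mdx array, 32.5, lies below the offset of 166.7 units added before the logarithm. The groups did not overlap, and the average difference was 1.06 (SE 0.192, adjusted p = 0.0422), 2.09-fold higher, with 1.10 in extraocular muscle, 1.36 in leg muscle and 0.73 in heart. The gene's other probe set, 161177_f_at, averaged 0.13 and did not pass.

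Capn6, a calpain without the catalytic cysteine that acts on microtubules, read 2747, 2145 and 1753 on the dko arrays and 1719, 1619 and 1026 on the mdx arrays in extraocular muscle. It read 2374, 3844 and 1822 on the dko arrays and 1493, 1684 and 1480.5 on the mdx arrays in leg muscle and 1104, 793 and 848 on the dko arrays and 582, 704 and 583 on the mdx arrays in heart. Its differences were 0.56 in extraocular muscle, 0.67 in leg muscle and 0.45 in heart, an average of 0.56 (SE 0.104, adjusted p = 0.0473). Another probe set of the gene, 97942_g_at, averaged 0.60 without passing, with 0.73 in extraocular muscle, 1.35 in leg muscle and -0.29 in heart, and went against the first in heart, where it read 19.7, 149.7 and 123 on the dko arrays and 106, 284 and 86 on the mdx arrays. Probe set 160469_at averaged 0.83 (SE 0.12, adjusted p = 0.0216) and ran from 1198 to 3282 units on the 9 dko arrays and from 612 to 1676 on the 9 mdx arrays.

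Thrsp, which encodes the Spot 14 protein of fatty acid synthesis, fell on the average and was lower in dko in all 9 pairs. Extraocular muscle gave 2874, 2539 and 3572 on the dko arrays and 4148, 5294 and 4778 on the mdx arrays. Leg muscle gave 1611, 1550.5 and 1416 on the dko arrays and 1906, 2559 and 1873 on the mdx arrays, and heart gave 1843, 958 and 1185 on the dko arrays and 3303, 2807 and 2118 on the mdx arrays. No dko array reached an mdx array, although the nearest values in leg muscle, 1611 in dko and 1873 in mdx, were close. The average difference was -0.68 (SE 0.102, adjusted p = 0.027), 1.6-fold lower, with -0.64 in extraocular muscle, -0.42 in leg muscle and -0.98 in heart. Fam220a read 2171, 1830.2 and 2389 on the dko arrays and 2885, 2530.0 and 2411 on the mdx arrays in extraocular muscle. It read 1569, 1931 and 1265 on the dko arrays and 2739, 2536 and 2579 on the mdx arrays in leg muscle and 2204, 2070.4 and 2452 on the dko arrays and 3785, 2671 and 4582 on the mdx arrays in heart. In extraocular muscle its highest dko value, 2389, and its lowest mdx value, 2411, nearly met. Its average was -0.54 (SE 0.0931, adjusted p = 0.0366), and a second probe set, 104393_at, averaged -0.32 without passing.

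**Figure D2:**
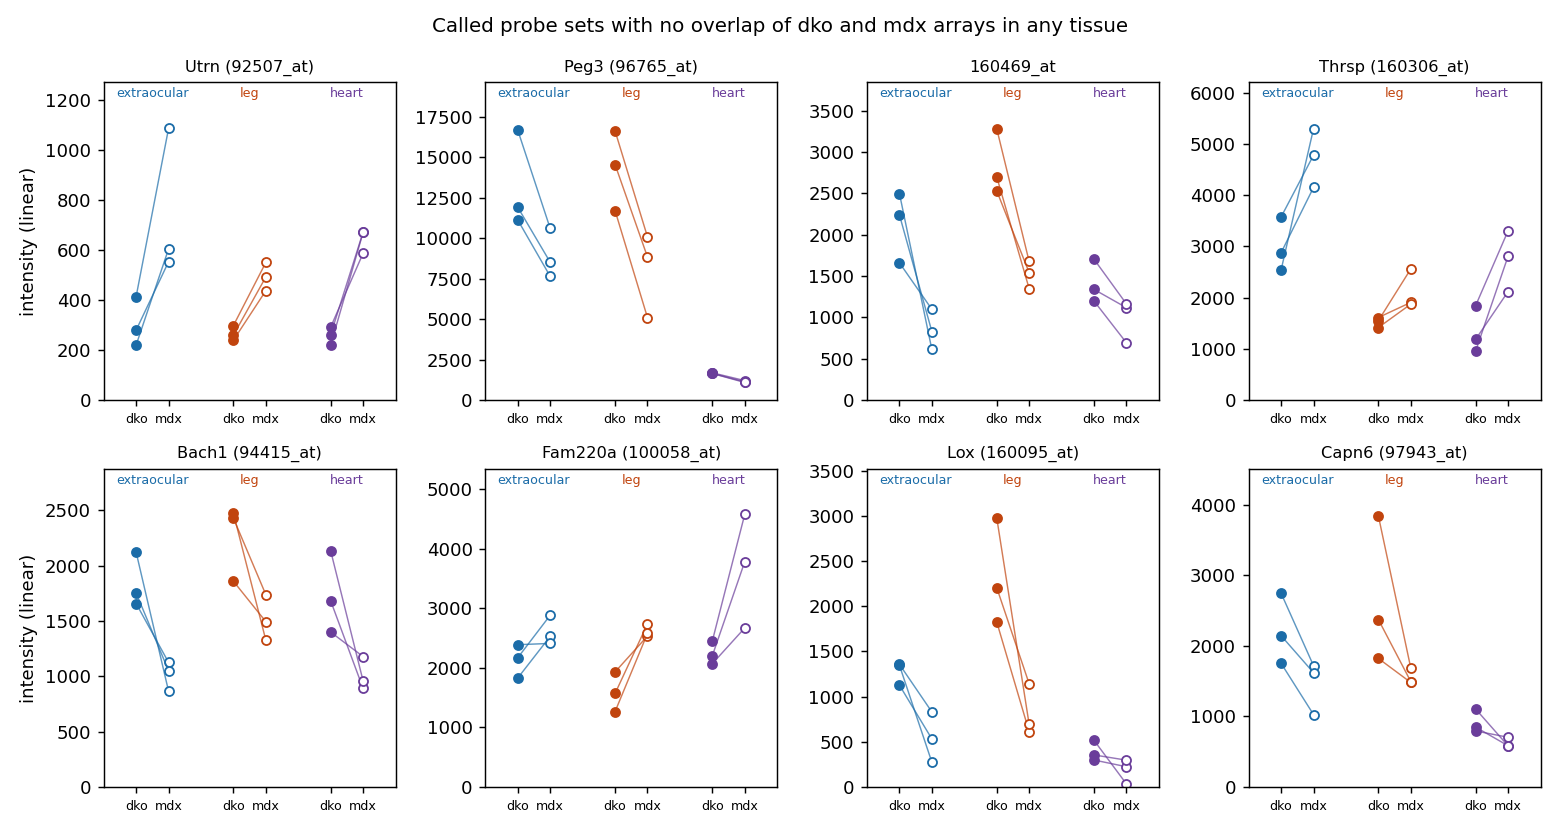
Intensity (y axis, linear, from 0) of the 8 called probe sets in which dko (filled) and mdx (open) arrays did not overlap in any tissue, with a line joining the arrays of each pair. Peg3, Bach1, Lox, Capn6 and 160469_at were higher in dko in extraocular muscle, leg muscle and heart, and Utrn, Thrsp and Fam220a were lower.

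Promoter windows of 250 bases before to 50 bases after the start were matched for 41 of the 49 common genes, 26 that rose and 15 that fell, from RefSeq on GRCm38.p6. They were searched on both strands for GAGGAA (the core of sites for PU.1, a factor of macrophages), TATAAA (the TATA box), CAGCTG (an E-box of the myogenic factors) and TGANTCA (the AP-1 site). GAGGAA stood in 12 of the 26 that rose (46.2%) and 8 of the 15 that fell (53.3%), against 31.3% of all 27025 genes with a window. TATAAA stood in 10 of 26 (38.5%) and 1 of 15 (6.67%), against 15.7% of all genes. CAGCTG stood in 5 of 26 and 3 of 15, against 18.3%, and TGANTCA in 3 of 26 and 1 of 15, against 8.97%. These are matches of letters and not sites shown to be used.

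The windows shown are examples. Thrsp, Peg3 and Bach1 separated the genotypes in every tissue, and Ctss and Postn were among the 8 that passed without blocks. Lox, Capn6, Utrn and Fam220a met the first condition too, and Utrn, S100a4 and Myh7 the second, and these are not shown. Every window shown held GAGGAA, so they do not represent the shares given above. The windows lie at chr7:97417501-97417800 (minus strand), chr7:6730370-6730669 (minus), chr16:87698704-87699003 (plus), chr3:95526536-95526835 (plus) and chr3:54360857-54361156 (plus). Capitals mark matches to the 4 motifs on either strand, so that TTCCTC is GAGGAA on the other strand and TTTATA is TATAAA on the other strand, and no 2 matches overlapped. A further Postn window held none of the 4.
Thrsp: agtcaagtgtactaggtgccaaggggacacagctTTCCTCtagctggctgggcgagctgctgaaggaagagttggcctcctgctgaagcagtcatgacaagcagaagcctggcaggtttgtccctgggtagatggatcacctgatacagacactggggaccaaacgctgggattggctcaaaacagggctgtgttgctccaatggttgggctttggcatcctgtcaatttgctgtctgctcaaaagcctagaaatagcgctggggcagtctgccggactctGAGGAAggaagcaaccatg
Peg3: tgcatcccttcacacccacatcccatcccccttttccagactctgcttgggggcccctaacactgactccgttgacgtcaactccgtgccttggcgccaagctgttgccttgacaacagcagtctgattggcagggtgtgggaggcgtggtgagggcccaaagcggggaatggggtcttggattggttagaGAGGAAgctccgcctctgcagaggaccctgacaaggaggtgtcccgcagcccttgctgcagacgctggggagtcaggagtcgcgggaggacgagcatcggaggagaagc
Bach1: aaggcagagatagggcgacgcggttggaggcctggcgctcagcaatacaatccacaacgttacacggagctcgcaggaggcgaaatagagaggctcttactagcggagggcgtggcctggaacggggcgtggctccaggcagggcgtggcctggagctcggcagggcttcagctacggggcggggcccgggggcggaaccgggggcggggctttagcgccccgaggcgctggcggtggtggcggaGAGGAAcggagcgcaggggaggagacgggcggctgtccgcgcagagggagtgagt
Ctss: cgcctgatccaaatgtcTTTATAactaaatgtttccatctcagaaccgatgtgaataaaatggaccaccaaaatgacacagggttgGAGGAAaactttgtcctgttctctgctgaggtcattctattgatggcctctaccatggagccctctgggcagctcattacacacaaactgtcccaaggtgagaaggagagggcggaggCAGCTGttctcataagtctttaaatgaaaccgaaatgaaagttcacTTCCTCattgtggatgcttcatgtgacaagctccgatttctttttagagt
Postn: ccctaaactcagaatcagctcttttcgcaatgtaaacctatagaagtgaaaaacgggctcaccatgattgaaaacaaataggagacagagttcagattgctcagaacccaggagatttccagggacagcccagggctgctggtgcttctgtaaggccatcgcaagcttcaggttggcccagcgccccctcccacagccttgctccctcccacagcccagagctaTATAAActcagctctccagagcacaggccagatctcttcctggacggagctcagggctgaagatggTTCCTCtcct

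GAGGAA was matched 2 times in the Thrsp window, 1 time in those of Peg3, Bach1 and Postn, and 2 times in that of Ctss, which also held CAGCTG and TATAAA. The Postn window held TATAAA and, near its end, TTCCTC. Genes that rose and genes that fell both carried GAGGAA, as Peg3 and Thrsp show.

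Of 31 macrophage genes tested, 6 rose on the average (Ctss, Lgals3, Mpeg1, Lilr4b, Tyrobp and Lyz2), 0 fell, 27 had a positive difference, and the median was 0.40, beside -0.02 for all genes, of which 40 of 6551 (0.611%) passed as higher and 45.4% were positive. The lists were drawn up with results of these arrays known. The macrophage median was 0.51 in extraocular muscle, 0.69 in leg muscle and -0.00 in heart. Summed over the 31 genes, the signal was 66880 to 72675 in dko and 28619 to 40651 in mdx extraocular muscle, 76851 to 124735 in dko and 45777 to 71372 in mdx leg muscle, and 38217 to 42396 in dko and 37765 to 42936 in mdx heart, with 0 of the 31 at 0 on any array. The sums did not overlap in either skeletal muscle and overlapped in heart.

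Ctss, the lysosomal protease cathepsin S of antigen-presenting cells, had one of the largest rises. Extraocular muscle gave 11122, 10962 and 14143 on the dko arrays and 2291, 3805 and 2735 on the mdx arrays. Leg muscle gave 14129, 20426 and 25306 on the dko arrays and 8921, 6063 and 13580.2 on the mdx arrays, and heart gave 3869.8, 3623 and 4309.8 on the dko arrays and 2529, 3872 and 3524 on the mdx arrays. In extraocular muscle every dko array was at or above 10962 units and every mdx array at or under 3805. The genotypes were also apart in leg muscle and were mixed in heart, where pair 2 ran the other way. The average difference was 1.11 (SE 0.135, adjusted p = 0.0112), with 2.00 in extraocular muscle, 1.09 in leg muscle and 0.26 in heart, and it passed without blocks (adjusted p = 0.0285).

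Lgals3, the sugar-binding protein galectin 3 of activated macrophages, was higher in all 9 pairs. It read 2590.5, 3409 and 3879 on the dko arrays and 320.5, 1324 and 984 on the mdx arrays in extraocular muscle. Leg muscle gave 4773, 8584 and 11425 on the dko arrays and 3852, 2885 and 7229 on the mdx arrays, and heart 783, 708 and 1442 on the dko arrays and 333, 506 and 810.0 on the mdx arrays. The groups overlapped in leg muscle and heart, where the arrays numbered 3 were the brightest of each genotype. The average was 1.12 (SE 0.153, adjusted p = 0.0171), 2.17-fold, with 1.86 in extraocular muscle, 0.82 in leg muscle and 0.68 in heart. Mpeg1, the pore-forming perforin 2 of macrophages, was likewise higher in all 9 pairs. It read 4881, 4201 and 4173 on the dko arrays and 2205, 1577 and 1085 on the mdx arrays in extraocular muscle. It read 5709.9, 8292 and 9886 on the dko arrays and 4971, 3452 and 3924 on the mdx arrays in leg muscle and 2727, 2063 and 1073 on the dko arrays and 2114, 1645 and 769 on the mdx arrays in heart. Its average was 0.89 (SE 0.125, adjusted p = 0.0187). Sirpa, the inhibitory receptor for CD47, averaged 0.85 (SE 0.151, adjusted p = 0.0393) with 9 of 9 pairs higher, from 1.47 in leg muscle to 0.18 in heart. Its 2 other probe sets averaged -0.15 and 0.02.

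Lilr4b, an inhibitory receptor of myeloid cells, averaged 0.86 (SE 0.134, adjusted p = 0.0281), yet its heart difference was 0.00 and 2 of 9 pairs ran the other way. Tyrobp (an adaptor of myeloid receptors), Ly86 (a partner of a Toll-like receptor relative), Ms4a6c and Lyz2 (lysozyme) passed on the average with 0.76, 0.64, 0.68 and 0.60, but had differences below 0 in heart, of -0.00, -0.01, -0.02 and -0.21, and so are not common to the tissues. For Tyrobp, heart read 1046, 1411 and 1782 on the dko arrays and 831, 1752 and 1794 on the mdx arrays, which overlapped throughout, against 2219.7, 4385 and 2837 on the dko arrays and 775, 1508 and 957 on the mdx arrays in extraocular muscle. A further 4 of the 9 probe sets that passed with mixed signs were Kcne1l, Tmsb10, Tubb2a and Sox11, each negative in heart, and the last was Myom2, negative in leg muscle (-0.07).

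Of 16 chemokine and cytokine genes, 2 rose (Ccr1 and Ccl8), 13 were positive (81.2%, where all genes had 45.4% positive and 0.611% called higher) and the median was 0.32, with 0.28 in extraocular muscle, 0.53 in leg muscle and 0.22 in heart. Ccr1, a receptor for inflammatory chemokines on myeloid cells, was higher in every pair. Heart read 402, 429 and 126 on the dko arrays and 78.7, 218 and 76.9 on the mdx arrays. Extraocular muscle read 749.6, 327 and 329 on the dko arrays and 460.5, 238 and 208 on the mdx arrays, and leg muscle read 594, 712 and 539 on the dko arrays and 309, 457 and 381 on the mdx arrays. The arrays overlapped in heart and extraocular muscle, and the average was 0.54 (SE 0.0999, adjusted p = 0.0453), with 0.41 in extraocular muscle, 0.51 in leg muscle and 0.70 in heart. Ccl8, a chemokine for monocytes, averaged 0.88 (SE 0.162, adjusted p = 0.0453), with 0.66 in extraocular muscle, 1.79 in leg muscle and 0.19 in heart, and was higher in 9 of 9 pairs. Ccl2, the chief monocyte attractant, averaged 0.88 and did not pass (adjusted p = 0.0582).

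Of 12 complement genes, 8 were positive (66.7%, beside 45.4%) and 1 rose, C3ar1, the receptor for the C3a fragment (0.63, SE 0.119, adjusted p = 0.0497). C1qb, a chain of the first component, missed the threshold at 0.71 (adjusted p = 0.0501). Of 25 cathepsin and lysosome genes, 21 were positive (84%, beside 45.4%) and Ctss alone rose, with a list median of 0.25. Called higher were 8.33% of the complement genes and 4% of the cathepsin and lysosome genes, beside 0.611% of all genes. By the same limma test 0 of 11 MHC class II genes, 0 of 27 interferon genes and 0 of 6 T cell genes passed, with 2, 6 and 0 at an unadjusted p under 0.05. In the skeletal muscles these counts stood beside the macrophage sums given above, whose part in them was not tested.

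**Figure D3:**
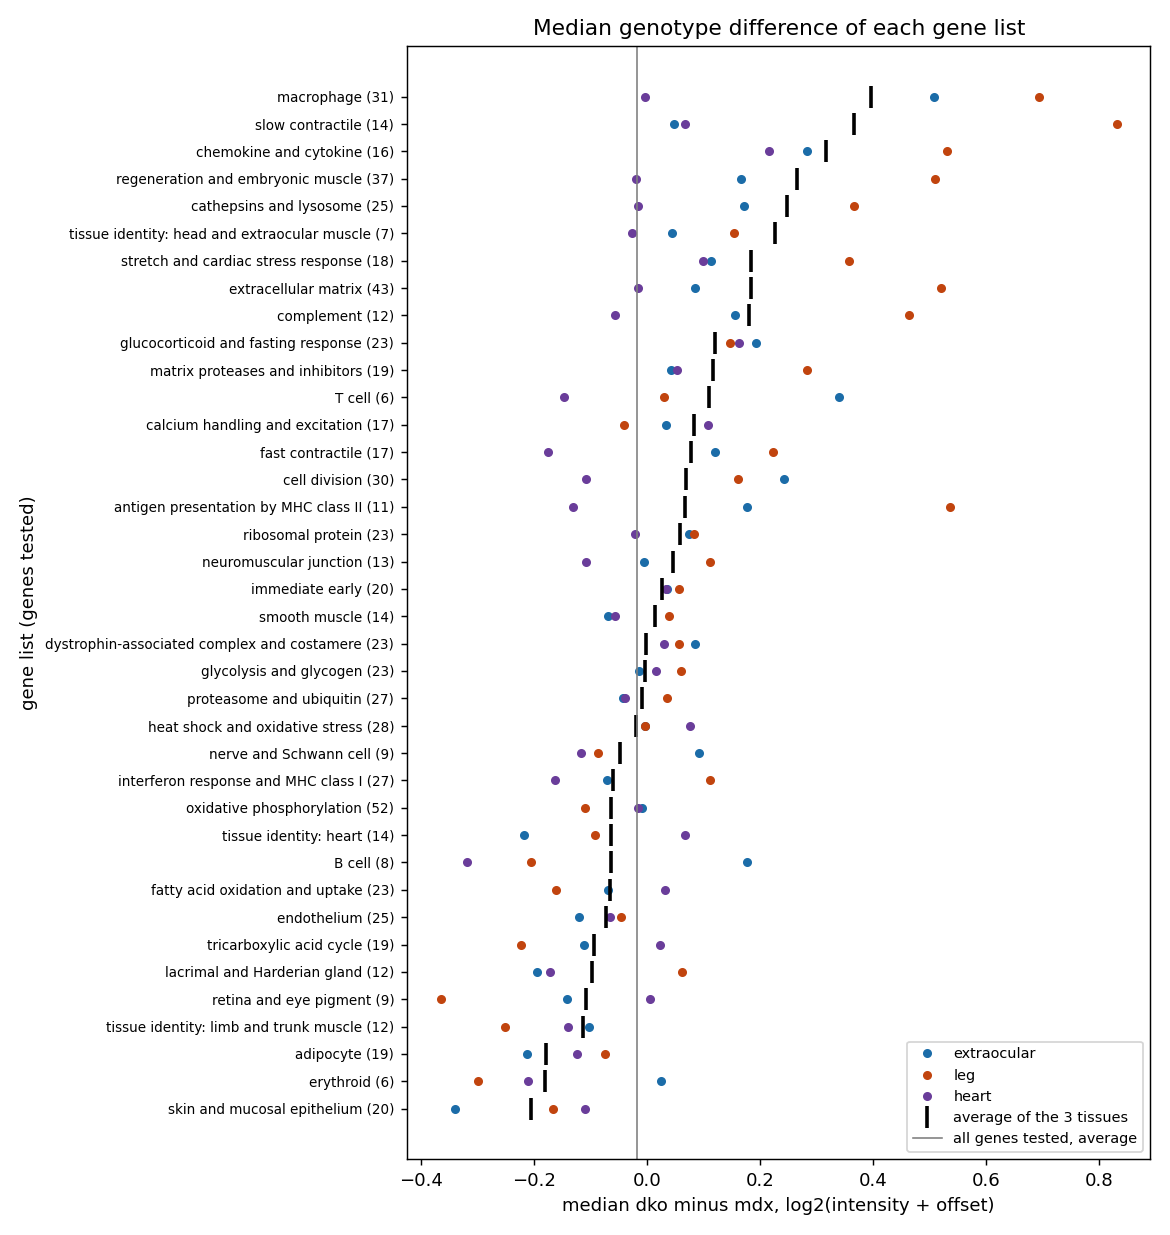
Median dko minus mdx difference on the log2(intensity + offset) scale (x axis) of each gene list (y axis, number of genes tested in brackets), per tissue and averaged. Macrophage genes stood at 0.51 and 0.69 in extraocular and leg muscle and at -0.00 in heart, and chemokine genes at 0.28, 0.53 and 0.22.

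Of 43 extracellular matrix genes, 3 rose (Lox, Postn and Col5a2), 34 were positive (79.1%, beside 45.4% positive and 0.611% called higher over all genes), and the median was 0.18, with 0.08 in extraocular muscle, 0.52 in leg muscle and -0.02 in heart. Postn, the matricellular protein periostin made by fibroblasts, read 10266, 10075 and 9784 on the dko arrays and 5986, 5899.9 and 5603 on the mdx arrays in extraocular muscle. Leg muscle gave 16546, 25011 and 22695 on the dko arrays and 8544, 7309 and 10962 on the mdx arrays, and heart 4187, 3264 and 5255 on the dko arrays and 3585, 3241 and 2909 on the mdx arrays. The genotypes were apart in both skeletal muscles, and in heart only the lowest dko value fell among the mdx values. Its average was 0.79 (SE 0.111, adjusted p = 0.0187), 1.72-fold, with 0.77 in extraocular muscle, 1.24 in leg muscle and 0.35 in heart, and it passed without blocks as well.

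Col5a2, a chain of the collagen that seeds fibrils, was higher in all 9 pairs although the arrays of the 2 genotypes overlapped in all 3 tissues. It read 5935, 8464 and 9442 on the dko arrays and 3701, 5252 and 6810.3 on the mdx arrays in extraocular muscle. It read 11843, 19030.2 and 20964 on the dko arrays and 5625, 7168 and 13553 on the mdx arrays in leg muscle and 1659, 2527 and 3306 on the dko arrays and 1459, 1818 and 2459 on the mdx arrays in heart. In each tissue the array numbered 1 was the dimmest of both genotypes and the array numbered 3 the brightest. The average was 0.65 (SE 0.0896, adjusted p = 0.0171), with 0.60 in extraocular muscle, 1.02 in leg muscle and 0.34 in heart, and without the pairs as blocks the adjusted p was 0.473. Ccn2, connective tissue growth factor, averaged 0.87 and did not pass (adjusted p = 0.112). Among 19 proteases and inhibitors, 14 were positive (73.7%, beside 45.4% of all genes) and Mmp3 (stromelysin) passed, at 0.78 (SE 0.12, adjusted p = 0.0275). Called higher were thus 5.26% of the list, beside 0.611% of all genes. Mmp12, the macrophage elastase, was higher in 9 of 9 pairs by 1.06 and missed the threshold (adjusted p = 0.0582).

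Further common genes that rose were S100a4 (a calcium-binding protein of fibroblasts and leukocytes, 0.74, SE 0.0895, adjusted p = 0.0112), Vcam1 (the adhesion molecule that leukocytes bind, 0.50), Msn (moesin, which ties actin to the membrane, 0.55), Iqgap1 (a cytoskeletal scaffold, 0.56), Apod (an apolipoprotein, 0.56), P2rx4 (an ATP-gated channel, 0.52) and Mgp (an inhibitor of calcification, 0.56). In heart the difference was smaller, at 0.30 for S100a4, 0.21 for Vcam1, 0.26 for Iqgap1, 0.15 for Apod, 0.22 for P2rx4 and 0.18 for Mgp. The heart arrays of the 2 genotypes overlapped for each of these. S100a4, Iqgap1, Apod, P2rx4 and Mgp were higher in 8 of 9 pairs. Vcam1, Msn, Pcbd1 and Map1s were higher in 9 of 9 pairs. Pcbd1, which recycles the cofactor tetrahydrobiopterin, differed by 0.52 in extraocular muscle, 0.57 in leg muscle and 0.48 in heart, with an average of 0.52 (SE 0.0894, adjusted p = 0.0357). It read 488, 424 and 456 on the dko arrays and 312, 185 and 314 on the mdx arrays in extraocular muscle, apart, and 495, 324 and 279.7 on the dko arrays and 214, 282 and 148 on the mdx arrays in heart, overlapping. Map1s, a microtubule-associated protein, averaged 0.49 (SE 0.0846, adjusted p = 0.0366). Probe set 96041_at, with several gene symbols, was higher in 9 of 9 pairs with 0.41 in extraocular muscle, 0.57 in leg muscle and 0.56 in heart. The largest rise without a gene name was 97519_at, 1.44 (SE 0.194, adjusted p = 0.0171), with 2.33 in extraocular muscle, 0.53 in leg muscle and 1.47 in heart.

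Of 37 genes of regeneration and embryonic muscle, 6 rose (Myl4, Peg3, Myh8, Ankrd1, Tmsb10 and Tubb2a), 31 were positive (83.8%, beside 45.4% positive and 0.611% called higher over all genes) and the median was 0.27, with 0.17 in extraocular muscle, 0.51 in leg muscle and -0.02 in heart. Of the 6, Tmsb10 and Tubb2a were negative in heart, which left 4 with the same sign in every tissue. Myl4, the embryonic and atrial myosin light chain, was higher in all 9 pairs. Extraocular muscle gave 7518, 9236 and 12933 on the dko arrays and 1614, 3349 and 6992 on the mdx arrays. Leg muscle gave 15264, 16877 and 19725 on the dko arrays and 7033, 6217 and 9048 on the mdx arrays, and heart gave 18617, 14724 and 24521 on the dko arrays and 12458, 9509.7 and 17512 on the mdx arrays. All dko arrays were above all mdx arrays in both skeletal muscles, and the hearts overlapped. The average was 1.08 (SE 0.116, adjusted p = 0.01), 2.11-fold, with 1.47 in extraocular muscle, 1.21 in leg muscle and 0.56 in heart. A second probe set, 100828_at, averaged -0.08.

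Myh8, the perinatal myosin heavy chain, averaged 0.64 (SE 0.105, adjusted p = 0.0338), with 0.70 in extraocular muscle, 1.08 in leg muscle and 0.14 in heart. Its heart arrays read 57.4, 24.6 and 54.2 on the dko arrays and 20.1, 26.3 and 29.4 on the mdx arrays, all under the offset of 166.7 units, so the sign in heart that counts it among the common genes rests on values near the bottom of the scale. Ankrd1, a stretch-responsive cofactor of muscle, averaged 0.77 (SE 0.118, adjusted p = 0.0275), with 1.54 in extraocular muscle, 0.69 in leg muscle and 0.08 in heart, and Runx1, a factor that denervated and damaged fibres switch on, averaged 0.60 (SE 0.0996, adjusted p = 0.0338). Maged2 averaged 0.70 (limma adjusted p = 0.0171). In heart Runx1 differed by 0.06 and Maged2 by 0.09, and for both genes the dko and mdx arrays overlapped in all 3 tissues. Without the pairs as blocks the limma adjusted p was 0.958 for Runx1 and 0.732 for Maged2. Myh3, the embryonic myosin heavy chain, did not pass at 0.65 (adjusted p = 0.0819). Of 30 cell division genes 23 were positive (76.7%, beside 45.4% of all genes) and 0 passed (6 at an unadjusted p under 0.05). Cks2 and Cdk1, both needed for mitosis, came closest at 0.73 and 0.69 (adjusted p = 0.0501 and 0.0515).

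Of 14 slow contractile genes, 2 rose (14.3%, beside 0.611% of all genes called higher). These were Myh7 and Tnnc1, and the leg supplied most of both averages. Myh7, the slow and cardiac myosin heavy chain, read 17632, 15031 and 16145 on the dko arrays and 241, 1999 and 363 on the mdx arrays in leg muscle. Extraocular muscle gave 15142, 21658 and 24223 on the dko arrays and 11231, 18949 and 22901 on the mdx arrays, and heart gave 12986, 8433 and 8143 on the dko arrays and 7783, 7145 and 7815 on the mdx arrays. Its average was 1.66 (SE 0.228, adjusted p = 0.0171), made of 0.23 in extraocular muscle, 4.40 in leg muscle and 0.34 in heart, and the 3 effects differed (limma F test, adjusted p = 0.0474). Leaving out leg muscle lowered the average to 0.29. Tnnc1, slow and cardiac troponin C, read 11874, 9672 and 14006 on the dko arrays and 2344, 1361 and 2348 on the mdx arrays in leg muscle, and averaged 0.84 (SE 0.0927, adjusted p = 0.01) with 0.03 in extraocular muscle, 2.48 in leg muscle and 0.01 in heart (F test, adjusted p = 0.00848), and 0.02 without leg muscle. Both have the same sign in 3 tissues by the rule, but outside the leg Tnnc1 arrays of the 2 genotypes overlapped in each tissue. Of the 14 genes, 12 were positive (85.7%, beside 45.4% of all genes), and the median was 0.05, 0.83 and 0.07 in extraocular muscle, leg muscle and heart. A second Myh7 probe set, 161547_f_at, averaged -0.03.

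The F test called 6 of 8888 probe sets (0.0675%) as different between the tissues. Besides Myh7 and Tnnc1 they were Kcne1l, a potassium channel subunit (1.24 in extraocular muscle, 1.80 in leg muscle and -0.15 in heart), and Myl2, Acta1 and 98501_at, for which no gene was listed, which did not pass on the average. Myl2, the slow and ventricular myosin light chain, differed by 4.05 in leg muscle and -1.34 in heart, and Acta1, skeletal actin, by 1.90 and -1.19. Of the 70 probe sets called on the average, 3 were thus called different between tissues, and 42 at an unadjusted p under 0.05. The share of all probe sets at that unadjusted p was not counted, so the 42 cannot be set against it.

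Among the 49 called probe sets that rose, the median difference was 0.71 in extraocular muscle, 0.91 in leg muscle and 0.26 in heart. Among the 21 that fell it was -0.49, -0.62 and -0.55. The absolute difference was largest in leg muscle for 39 of the 70, in extraocular muscle for 24 and in heart for 7. This was not counted over all probe sets. Of all probe sets tested, 1585 in leg muscle, 717 in extraocular muscle and 494 in heart had an unadjusted limma p under 0.05. Within tissues, 14 probe sets passed in extraocular muscle (0.158%), 107 in leg muscle (1.2%) and 0 in heart, where the smallest adjusted p was 0.055 and 494 had an unadjusted p under 0.05. An unadjusted p under 0.05 in each of the 3 tissues, with 1 sign, was reached by 23 (0.259%), 20 of them among the 70, a class set up after the data were seen. When the largest of the 3 tissue p-values was adjusted over all probe sets, 0 passed. Across all probe sets the tissue differences correlated weakly, at r = 0.235 for extraocular and leg muscle, 0.0827 for extraocular muscle and heart and 0.0694 for leg muscle and heart, over probe sets that are not independent.

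**Figure D4:**
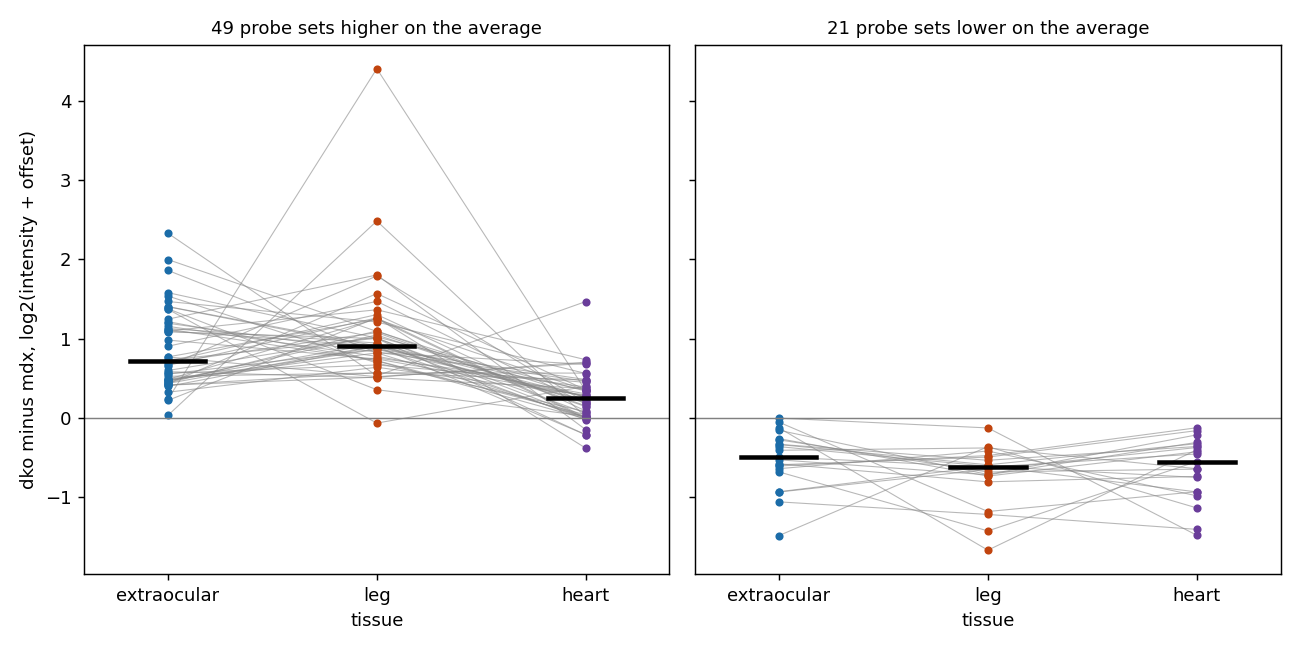
Dko minus mdx difference on the log2(intensity + offset) scale (y axis) in each tissue (x axis) for the 49 probe sets higher and the 21 lower on the average. Lines join a probe set and bars mark medians, which among the risers were 0.71, 0.91 and 0.26 and among the fallers -0.49, -0.62 and -0.55 in extraocular muscle, leg muscle and heart.

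Of 19 adipocyte genes, 3 fell (Ucp1, Thrsp and Me1), 14 were negative and the median was -0.18, with -0.21 in extraocular muscle, -0.07 in leg muscle and -0.12 in heart, beside 13 of 6551 genes called lower (0.198%) and 54.6% negative. Ucp1, the uncoupling protein of brown fat, read 52.3, 239 and 889.5 on the dko arrays and 538, 1207 and 1953 on the mdx arrays in extraocular muscle. Heart gave 422, 71.8 and 106 on the dko arrays and 1628, 308 and 310.1 on the mdx arrays, and leg muscle gave 37.5, 60.6 and 49.7 on the dko arrays and 65.5, 176 and 102 on the mdx arrays, near the bottom of the scale. It was lower in dko in all 9 pairs, but its arrays varied widely within a group and overlapped in extraocular muscle and heart. The average was -0.99 (SE 0.113, adjusted p = 0.0105), with -1.48 in extraocular muscle, -0.36 in leg muscle and -1.14 in heart, and without blocks the adjusted p was 0.569. Its other probe set, 161422_f_at, averaged -0.39.

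Me1, the malic enzyme that supplies NADPH for fat synthesis, averaged -0.52 (SE 0.0978, adjusted p = 0.0497), and Gpam, which starts triglyceride synthesis, averaged -0.42 (SE 0.0732, adjusted p = 0.0366) with 9 of 9 pairs lower. Adiponectin (Adipoq) averaged -0.47, stearoyl-CoA desaturase (Scd1) -0.70 and resistin (Retn) -0.62, with limma adjusted p = 0.273, 0.257 and 0.124, none of them passing. The summed signal of the 19 genes was 80914 to 95756 in dko and 91431 to 110083 in mdx extraocular muscle, 64667 to 77882 in dko and 64801 to 98972 in mdx leg muscle, and 69686 to 73427 in dko and 72285 to 92140 in mdx heart, overlapping in each tissue. On no array were any of the 19 at 0. The part of fat tissue in the falls of Ucp1, Thrsp and Me1 was not tested.

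Of 25 endothelial genes, 19 were negative (76%, beside 54.6%), with a median of -0.07, and 1 rose (Vcam1) and 1 fell: Gja5, the gap junction protein of arterial endothelium (-0.42, SE 0.0776, adjusted p = 0.048). Called higher were 4% and called lower 4%, beside 0.611% and 0.198% of all genes. Tie1, an endothelial receptor, averaged -0.41 (SE 0.0718, adjusted p = 0.0366) on 161184_f_at and -0.26 on the brighter probe set that stands for it in the list, which did not pass, and S1pr3, a receptor for sphingosine phosphate, averaged -0.40 (SE 0.0664, adjusted p = 0.0338). Aqp1, the water channel of capillaries and red cells, read 3463, 4385 and 12329 on the dko arrays and 4084, 7932 and 16494 on the mdx arrays in extraocular muscle. It read 2549, 2689 and 7356 on the dko arrays and 4128, 4799 and 9753 on the mdx arrays in leg muscle and 3656, 3564 and 10359 on the dko arrays and 4986, 5922 and 12160.4 on the mdx arrays in heart. The arrays numbered 3 read far above the others in both genotypes, and the groups overlapped in each tissue while every pair was lower in dko. The average was -0.52 (SE 0.091, adjusted p = 0.0366), with -0.49 in extraocular muscle, -0.62 in leg muscle and -0.46 in heart, the adjusted p without blocks was 1.0, and another probe set, 161559_i_at, averaged 0.36.

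Ighm, the heavy chain of immunoglobulin M, fell on the average on 2 probe sets. On 93584_at, lower in 9 of 9 pairs, leg muscle read 321, 328 and 278 on the dko arrays and 2082, 1033 and 1108 on the mdx arrays, without overlap. Extraocular muscle read 314, 324 and 219 on the dko arrays and 329.9, 326 and 314 on the mdx arrays, and the groups overlapped. Probe set 93584_at averaged -0.73 (SE 0.101, adjusted p = 0.0171), with -0.12 in extraocular muscle, -1.67 in leg muscle and -0.40 in heart, and 93583_s_at averaged -0.72 (adjusted p = 0.0328) with 2 of 9 pairs higher. Of 8 B cell genes, 6 were negative (75%, beside 54.6% of all genes). Ighm alone passed (12.5%, beside 0.198% of all genes called lower). Lef1, a factor of the Wnt pathway, averaged -0.65 (SE 0.0962, adjusted p = 0.0238) and was lower in 9 of 9 pairs, with 200.1, 382 and 106.5 on the dko arrays and 582, 707 and 419.6 on the mdx arrays of extraocular muscle. A second probe set, 103628_at, averaged 0.18 and did not pass.

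Tbx2, a T-box factor, averaged -0.48 (SE 0.0837, adjusted p = 0.0366), lower in 9 of 9 pairs, while its other probe set, 92705_at, averaged 0.19. Cwf19l1 averaged -0.71 (SE 0.11, adjusted p = 0.0277) and Mfsd4a -0.57 (SE 0.108, adjusted p = 0.0497), each lower in 9 of 9 pairs. Mfsd4a was close to the bottom of the scale in heart, with 31.6, 51.2 and 41.1 on the dko arrays and 241, 81.7 and 256 on the mdx arrays. The largest fall had no gene name: 101566_f_at averaged -1.23 (SE 0.162, adjusted p = 0.0171), with -1.06 in extraocular muscle, -1.22 in leg muscle and -1.41 in heart, and read 298, 8.6 and 18.9 on the dko arrays and 811, 653 and 184 on the mdx arrays in heart.

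**Figure D5:**
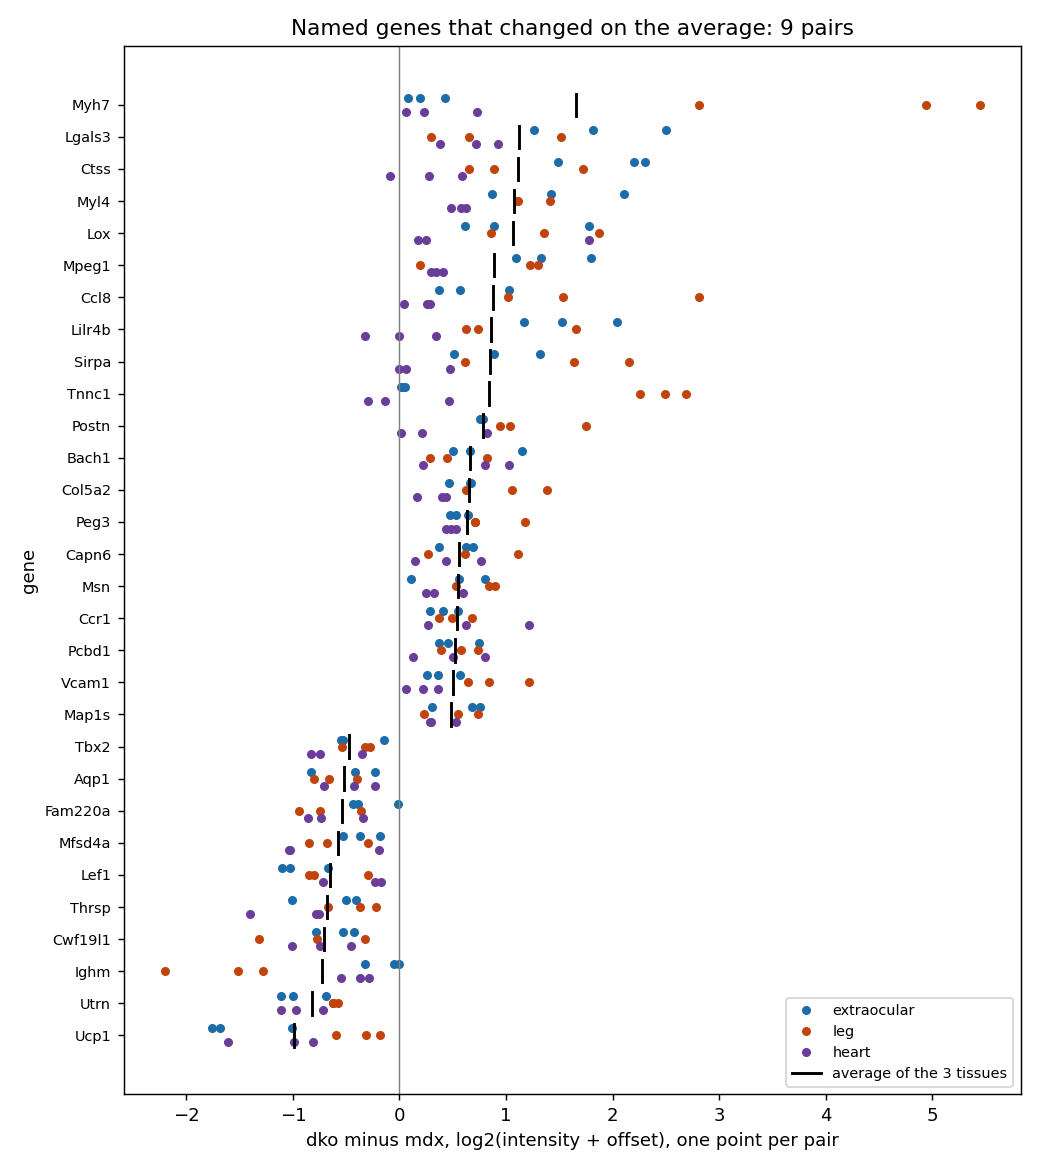
Dko minus mdx difference of each of the 9 pairs (x axis, log2(intensity + offset)) for the 30 named genes (y axis) with a common change, coloured by tissue, with a bar at the average. Pcbd1 ran from 0.48 to 0.57 over the 3 tissue means and from 0.13 to 0.80 over the 9 pairs. The spread of Myh7 came from leg muscle at 4.40 against 0.23 and 0.34 in extraocular muscle and heart.

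Of 52 oxidative phosphorylation genes, 39 were negative (75%) and 0 passed (6 at an unadjusted p under 0.05, 11.5%), with a median of -0.06. Over all genes 54.6% were negative and 15% had an unadjusted p under 0.05, so the share of oxidative phosphorylation genes at that p was no higher than that of all genes. Of 23 genes of fatty acid oxidation 19 were negative, and of 19 genes of the tricarboxylic acid cycle 14 were negative. None of these passed by limma, with 4 and 4 at an unadjusted p under 0.05. Cox7a1, a muscle subunit of cytochrome oxidase, was lower in all 9 pairs and averaged -0.38 (limma adjusted p = 0.0515). Of 20 genes of skin and mucosal epithelium, 19 were negative and 0 passed (6 at an unadjusted p under 0.05), with a median of -0.21. Their summed signal was 14853 to 17876 in dko and 20991 to 25998 in mdx extraocular muscle, without overlap. It overlapped in leg muscle and in heart. The sum was highest in heart, at 51199 to 59808 in dko and 45264 to 55421 in mdx, so it does not measure epithelium alone. The part of epithelium in the extraocular difference was not tested. Genes of lacrimal and Harderian gland were negative in 10 of 12, and 0 passed (3 at an unadjusted p under 0.05).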

How the data were processed

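Expression of 12488 probe sets was measured on 18 Affymetrix mouse arrays. The authors deposited the values as intensity on a linear scale, already scaled so that each array's mean with 2% trimmed from each tail was 1500.69 to 1501.15, which was worked out from the values themselves. Which software made them is not stated in the labels. The deposited table held 0 columns of other series and no detection calls, and 18 arrays limit the precision.

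The 66 control probe sets were left out, and a probe set was tested if 3 or more arrays had it over their 40th percentile, 8888 in all (7977 with 1 gene symbol, for 6551 genes). Symbols came from the platform table, in which 10833 probe sets had 1 symbol, 396 several and 1193 none, and 0 were updated. Differences are of log2(intensity + 166.7), the offset being the median of the arrays' 25th percentiles, so changes of dim probe sets are understated. limma 3.58.1 in R 4.3.3 fitted genotype within tissue with the 9 pairs of tissue and replicate number as blocks (6 residual and 3.79 prior degrees of freedom; 12 and 3.52 without blocks), and p-values were two-sided and adjusted by Benjamini and Hochberg over all 8888. The pairs follow from the titles' numbers: deviations from group means of a pair correlated at 0.404 to 0.751 (median 0.61) across probe sets, and those of the same number in other tissues at 0.327 to 0.74. The scripts were tested on simulated data in which noise was independent between arrays, so dependence between pairs was not covered.

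Up to 20 genes that rose and 10 that fell were named among called probe sets with 1 symbol and the same sign in every tissue, those with the same sign in all 9 pairs first and then by size, with Utrn, Dmd, other probe sets of these genes, up to 4 members a gene list and the 5 largest of mixed sign. Genes named besides were chosen after their values were seen. The comparison, its members and the gene lists were chosen with earlier results of these data known; a list gene was read by its brightest probe set. Alternatives were other blocks, offsets, filters and scalings, and leaving out pairs, replicate numbers and tissues. Python 3.11.15 with matplotlib 3.10.9 drew the figures.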

Additional observations from a re-analysis of the deposited data

Results flagged for a closer look

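Among the probe sets called on the average, 3 differed in their dko minus mdx effect between extraocular muscle, leg muscle and heart by the limma F test. For Kcne1l (100907_at) the adjusted p was 0.0474, with differences of 1.24, 1.80 and -0.15 in that order. For Tnnc1 (101063_at) it was 0.00848, with 0.03, 2.48 and 0.01. For Myh7 (98616_f_at) it was 0.0474, with 0.23, 4.40 and 0.34. Without the pairs as blocks the F test called 0 probe sets.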

How the results depend on the processing

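The 70 probe sets called on the average, and the 61 of these with the same sign in every tissue, became 8 and 8 with no replicate block, 6 and 6 with the block and 1 genotype term for all tissues, and 1 and 1 when the values were averaged over tissues into 3 pairs (2 residual degrees of freedom, 1149 at an unadjusted p under 0.05). They became 34 and 31 with an offset of 16, 202 and 157 with an offset 4 times larger, and 146 and 122 with a filter at the 60th percentile. Leaving out a pair, a replicate number or a tissue gave 0 to 41 and 0 to 35, apart from 48 and 47 without heart. A block by number common to the tissues, no filter, 75th percentile scaling and quantile normalization kept both counts within 1.5 times. The 14 calls in extraocular muscle became 2 with no replicate block, 0 with an offset of 16 and 8 with no filter, and 0 to 16 without a replicate. The 107 in leg muscle became 5 with no replicate block, 34 and 314 with the smaller and the larger offset, 270 with the 60th percentile filter, and 8 to 83 without a replicate. The 0 in heart became 1 with the larger offset and 1 with the 60th percentile filter, and 0 to 1 without a replicate. The 6 calls of the F test became 0 with no replicate block, 1 and 12 with the smaller and the larger offset, 2 with no filter, 2 with 75th percentile scaling, 3 with quantile normalization, and 0 to 4 without a replicate. The 28 list genes called became 3 with no replicate block, 16 and 69 with the smaller and the larger offset, and 50 with the 60th percentile filter. The causes were not tested.

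On 92508_s_at, Utrn averaged -0.47 to -0.84 without a replicate number and was no longer past the threshold without number 2 (exact permutation p = 0.0625) or number 3 (p = 0.125), nor without extraocular muscle (-0.57, p = 0.0938) or heart (-0.68, p = 0.125). The smallest p that 6 pairs allow is 0.0312. None of the 35 named genes changed sign under the settings it was tested in, which were 25 except for 7 genes that the 60th percentile filter left out (28 tested). Much of this was fixed in advance. Genes with the same sign in every pair were named first, and leaving out pairs, numbers or tissues cannot reverse those. With groups of equal size, the choice of blocks or filter leaves the average difference itself unchanged. The constant sign is therefore no measure of how robust the named genes are. Of the 35, 5 also passed with no replicate block, 4 with 1 genotype term for all tissues, 2 without number 2, and 0 without number 1, without number 3, without extraocular muscle, without leg muscle or with the 3 pairs averaged over tissues. All 266 list medians under the settings tried moved by less than 1 SD, and scaling moved the median of all genes by at most 0.01. Where only the blocks changed, the list medians could not move, because the average differences stay the same. The size of the SD used for the list medians is not given. The 266 are therefore no measure of how robust the lists are.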
